A study of Homo sapiens with 6 samples.

Results

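The nuclear-encoded subunits of the mitochondrial respiratory chain and ATP synthase were followed in RNA that was recovered with 2 differently tagged ribosomal proteins from the same cell line. The genes were chosen by symbol pattern (NDUFA, NDUFB, NDUFC, NDUFS or NDUFV plus a number, SDHA to SDHD, UQCR, COX4 to COX8, and ATP5F1, ATP5M, ATP5P or ATP5IF, without symbols of pseudogenes). They came to 79 of the 16834 genes in the deposited table, 37 of complex I, 4 of complex II, 9 of complex III, 11 of complex IV and 18 of complex V. The pattern puts NDUFA4 with complex I by its name, although its protein is now known as a subunit of complex IV.

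All libraries came from cycling, not synchronized HEK293-T Flp-In cells, a human embryonic kidney line with a single site for recombination. The cells carried 1 insert of ccTaggedRP, a bicistronic construct under the CAG promoter in a stable line kept under hygromycin. It encodes the ribosomal protein Flag-RPL10a-hCdt, whose degron of CDT1 is predicted to keep it in G1 and early S, and HA-RPL10a-hGem, whose degron of geminin is predicted to keep it in S, G2 and M. In the Flag-IPs (3 libraries) RNA was recovered with an antibody against Flag, and in the HA-IPs (3 libraries) with an antibody against HA. The samples held no input RNA and no cells without a tag, so each value compares 1 immunoprecipitate with the other. Nothing in the labels says that the replicates came from separate cultures, and the p-values then measure only the spread between these samples. In such bulk RNA, fewer cells of a kind and less RNA per cell cannot be told apart.

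Complex I (NADH dehydrogenase) and complex II (succinate dehydrogenase) pass electrons to ubiquinone, complex III passes them to cytochrome c and complex IV to oxygen. Complexes I, III and IV pump protons, and complex V, the ATP synthase, lets them flow back and makes ATP. All but complex II are built from subunits of both genomes, and several of the nuclear-encoded catalytic proteins are long in comparison with the many small accessory ones.

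Promoters of these genes are known for sites of NRF1, of the ETS factor GABPA and of YY1. RefSeq promoters of 250 bases before to 50 after the start (GRCh38.p14) were at hand for 65 of the 79 genes. A gene with more than 1 promoter was counted once, with a match in any of them. On either strand, the letters GCATGCGC (NRF1) stood in a promoter of 14 of the 65 genes (21.5%). The share was 3.68% over 27305 genes with a promoter and 6.06% over 11687 genes in the table. CCGGAAG (ETS) stood in a promoter of 21 genes (32.3%), against 12.2% of all and 21.0% in the table. AAGATGG (YY1) stood in a promoter of 18 genes (27.7%), against 7.11% of all and 8.99% in the table. Among the subunits, no match of 1 motif overlapped a match of another. At least 1 motif was found in 8 of the 12 subunits with a promoter that were called higher in the Flag-IPs (limma, adjusted p-value of at most 0.05), and in 32 of the other 53. These matches are descriptions of letters and not of binding. Stretches before the start are shown for called subunits of complex I and complex V, and for SDHD, which was not called, with the matched letters in capitals and each read 5′ to 3′ on the strand of its gene. They lie at chr22:42090901-42090968 (minus strand, NDUFA6), chr3:120596147-120596216 (plus strand, NDUFB4), chr19:1383804-1383871 (plus strand, NDUFS7), chr19:14572067-14572120 (minus strand, NDUFB7), chr4:674317-674384 (minus strand, ATP5ME) and chr11:112086733-112086832 (plus strand, SDHD).
NDUFA6: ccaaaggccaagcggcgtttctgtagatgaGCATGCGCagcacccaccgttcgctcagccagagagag
NDUFB4: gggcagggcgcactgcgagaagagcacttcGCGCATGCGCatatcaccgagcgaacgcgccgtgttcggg
NDUFS7: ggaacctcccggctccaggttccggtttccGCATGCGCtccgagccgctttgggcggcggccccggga
NDUFB7: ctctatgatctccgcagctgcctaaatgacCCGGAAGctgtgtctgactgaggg
ATP5ME: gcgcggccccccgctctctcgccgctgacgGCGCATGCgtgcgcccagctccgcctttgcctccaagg
SDHD: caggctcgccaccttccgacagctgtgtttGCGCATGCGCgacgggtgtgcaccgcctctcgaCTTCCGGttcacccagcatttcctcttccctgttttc
The NRF1 letters stand in the stretches of NDUFA6, NDUFB4, NDUFS7 and ATP5ME, which were called, and in that of SDHD, which was not. Of the 14 genes with these letters in a promoter, only NDUFA6, NDUFB4, NDUFS7 and ATP5ME were called. Most of the 14 genes were not called, so the stretches shown do not reflect the proportion.

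Most of the subunits lay slightly higher in the Flag-IPs, and few of the differences passed the test. With limma on log2(normalized count + 1), a two-sided test and an adjusted p-value of at most 0.05 over all 16834 genes, 13 subunits were called higher in the Flag-IPs and 1 in the HA-IPs. Of all genes, 7.1% were called higher in the Flag-IPs and 5.79% in the HA-IPs. The median log2 fold change (HA-IP minus Flag-IP, so that values below 0 are higher in the Flag-IPs) was -0.24 over the 79 subunits and -0.0049 over all genes. Of the 79 fold changes 68 lay below 0, or 49 once trends with GC content and length were removed as described below. In 23 subunits every Flag-IP exceeded every HA-IP, which held for 16.1% of all genes. In the plot of fold changes, ATP5F1A, ATP5F1B and UQCRC1, which have long coding sequences, lay near 0. Long transcripts as such did not all lie there, with ATP5MC3 (2587 bases) at -1.01 and ATP5F1E (3610 bases) at -0.73.

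**Figure D1:**
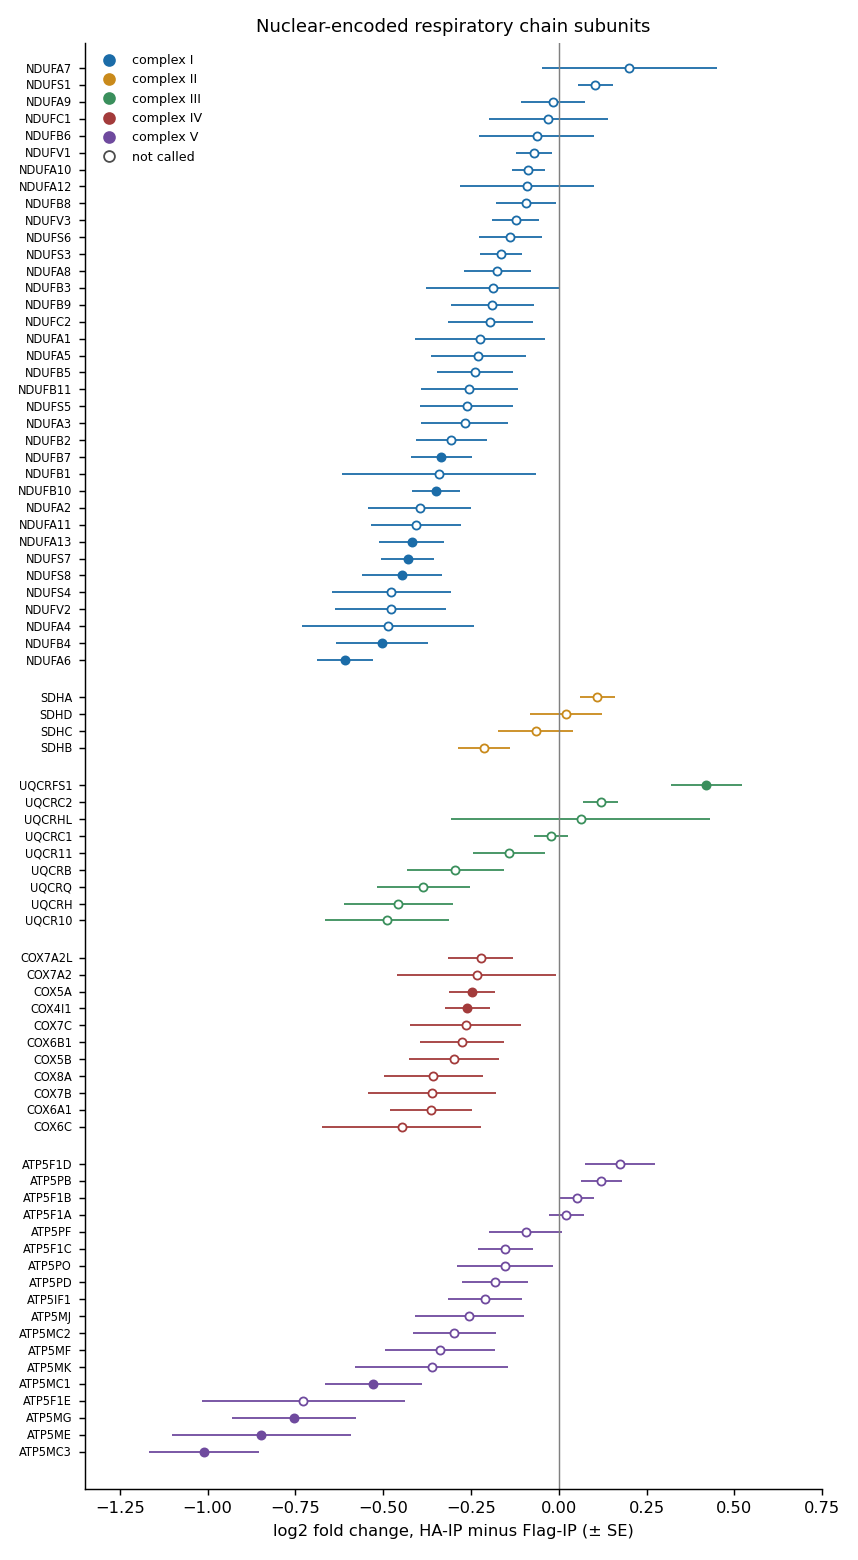
Log2 fold change of 78 subunits (x axis, HA-IP minus Flag-IP, bars ± SE from limma), ordered within each complex. Filled points passed an adjusted p-value of 0.05, and ATP5MC3 at -1.01 and UQCRFS1 at 0.42 are the ends of the range.

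Transcript length went along with the fold change in the subunits and in other genes alike. The subunits had a median canonical transcript of 758 bases, against 3411 bases for all protein-coding genes of the table. Among the 38 subunits of at most 750 bases, 7 (18.4%) were called higher in the Flag-IPs and the median log2 fold change was -0.30. The other 300 protein-coding genes of that length gave 24.3% and a median of -0.30. Between 750 and 1000 bases the medians were -0.26 over 9 subunits and -0.19 over 365 other genes, and between 1000 and 1500 bases -0.15 over 9 and -0.11 over 1031. From 1500 to 2500 bases they were -0.13 over 10 subunits and -0.02 over 2864 other genes, and above 2500 bases -0.09 over 13 and 0.04 over 9220. By coding length, the 47 subunits of at most 450 bases had a median of -0.30 against -0.22 for 828 other genes, and 19.1% against 18.2% were called higher in the Flag-IPs. From 450 to 900 coding bases, 19.0% of 21 subunits and 12.7% of 2632 other genes were called higher in the Flag-IPs, with medians of -0.18 and -0.10. The 11 subunits with over 900 coding bases had a median of -0.02 and no call, against a median of 0.04 and 4.54% called higher in the Flag-IPs over 10320 other genes. As a description across genes, which are not independent, Spearman's rho between coding length and log2 fold change was 0.498 over the 79 subunits and 0.375 over 13859 protein-coding genes. With transcript length in place of coding length, rho was weaker, at 0.289 and 0.232. The shares of the shortest subunits that were called lay near those of other genes of like length.

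**Figure D2:**
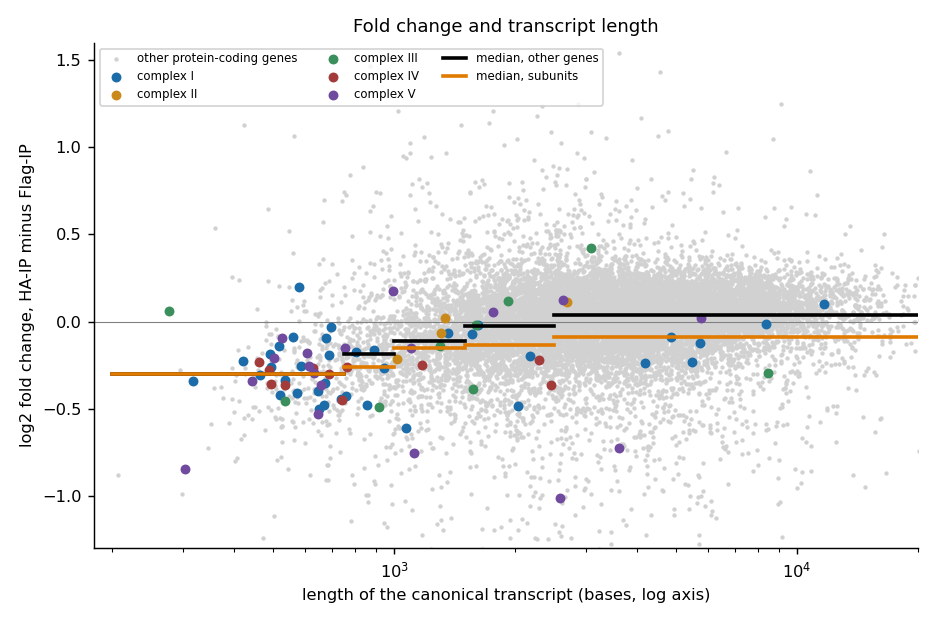
Log2 fold change (y axis, HA-IP minus Flag-IP) against the length of the canonical transcript (x axis, log scale), subunits in colour and other protein-coding genes in grey, of which 231 lie beyond the y axis. The thick lines are medians per length band, and those of subunits and other genes coincide at -0.30 in the shortest band.

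When trends with GC content and length were removed within each library, 4 subunits remained higher in the Flag-IPs (7.4% of all genes were called) and 3 were higher in the HA-IPs (7.97% of all genes). The median of the 79 subunits moved from -0.24 to -0.05. The 4 were NDUFA6 (-0.44 ± 0.06 SE), NDUFS7 (-0.32 ± 0.06), ATP5MC3 (-0.99 ± 0.13) and ATP5MG (-0.60 ± 0.13), all called without the correction as well. UQCRFS1 (0.42 ± 0.10) kept its call in the HA-IPs, and UQCRC2 (0.17 ± 0.04, adjusted p-value 0.0174) and ATP5PB (0.13 ± 0.04, adjusted p-value 0.0498) joined it.

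**Figure D3:**
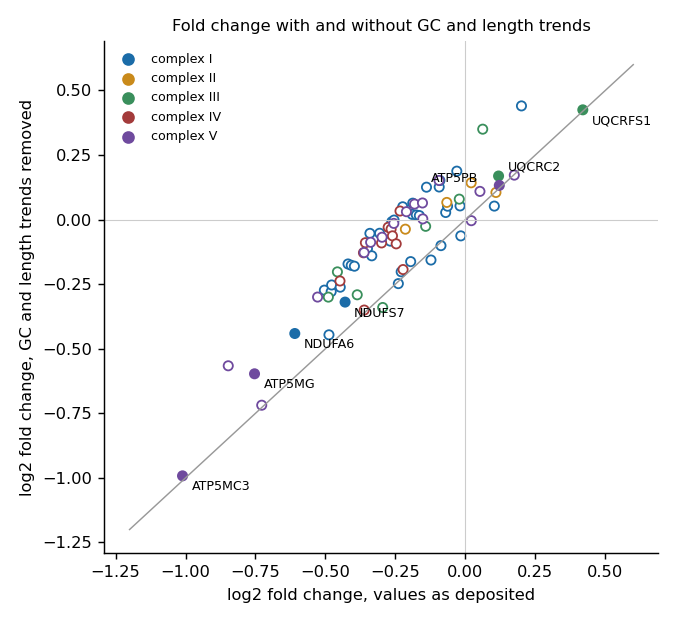
Log2 fold changes of the 79 subunits from the deposited values (x axis) and after trends with GC content and length were removed (y axis), with the diagonal as a line. Filled, named points are the 7 subunits called after the removal, and most others moved up toward 0.

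The calls depended on single libraries. Counts of subunits called higher in the Flag-IPs were 12 without Flag-IP replicate 1, 4 without replicate 2 and 21 without replicate 3, and 5, 5 and 15 without HA-IP replicates 1, 2 and 3. Over all 16834 genes these counts moved as well, to 1136, 517 and 1509 without Flag-IP replicates 1, 2 and 3 and to 555, 632 and 897 without HA-IP replicates 1, 2 and 3, from 1196. Leaving out Flag-IP replicate 1 moved the median log2 fold change of the 79 subunits to -0.13, and leaving out HA-IP replicate 1 moved it to -0.14. NDUFA6, NDUFS7, NDUFB10 and ATP5MC3 were called in all 6 of these fits. The calls of NDUFB4, NDUFB7, COX4I1, ATP5MG and ATP5MC1 were lost without Flag-IP replicate 2, HA-IP replicate 1 or HA-IP replicate 2, and that of NDUFA13 without Flag-IP replicate 2 or HA-IP replicate 1. NDUFS8 was also lost without HA-IP replicate 3, COX5A also without Flag-IP replicate 3 and ATP5ME also without Flag-IP replicate 1, beside the same 3 libraries. Over these losses, UQCRFS1 included, the adjusted p-values (limma) ran from 0.0539 to 0.145. Without its variance trend, limma called 1 subunit, NDUFA13, and 15 lay higher in the Flag-IPs at an unadjusted p under 0.05, while its calls over all genes came to 182 in that direction.

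In complex I, 7 of the 37 subunits were called higher in the Flag-IPs and none in the HA-IPs, and the log2 fold changes had a median of -0.23, with 35 of 37 below 0 (23 with the trends removed). NDUFA6, a small accessory subunit of the LYR family (chr22:42085526-42090884, minus strand, GRCh38), read 1066, 1012 and 970.3 normalized counts in the Flag-IPs against 606.8, 661.6 and 733.3 in the HA-IPs. The lowest Flag-IP stood above the highest HA-IP. Its mean was 1.52-fold higher in the Flag-IPs (log2 fold change -0.61 ± 0.08 SE, adjusted p-value 0.00115, limma). NDUFS7, a core subunit that carries the iron-sulfur cluster next to ubiquinone, read 1731, 1834 and 1853 in the Flag-IPs against 1188, 1447 and 1399 in the HA-IPs. These groups did not overlap either, and the log2 fold change was -0.43 ± 0.08 (adjusted p-value 0.00502). NDUFS8, a core subunit with further iron-sulfur clusters, read 959.7, 733.7 and 690.9 against 546.2, 627.9 and 559.1. Flag-IP replicate 1 stood apart at the top, and the log2 fold change was -0.45 ± 0.11 (adjusted p-value 0.0266).

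The other 4 called subunits of complex I were accessory subunits. NDUFB10 read 2090, 1990 and 2083 in the Flag-IPs against 1444, 1694 and 1709 in the HA-IPs (log2 fold change -0.35 ± 0.07, adjusted p-value 0.00906). NDUFA13, also known as GRIM-19, read 355.8, 357.3 and 356 against 251.9, 277.3 and 270.2, with an SD of 0.786 normalized counts among its Flag-IPs (log2 fold change -0.42 ± 0.09, adjusted p-value 0.0137). NDUFB4 gave means of 479.6 ± 40.0 and 341.1 ± 61.8 (SD, n = 3 each), and NDUFB7 means of 1503 ± 54.8 and 1199 ± 157. Both had their lowest value in HA-IP replicate 1 and groups that did not overlap.

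The longest core subunits of complex I were not called. NDUFS1, the largest of them and the gene of complex I with the highest normalized counts, read 7993, 7613 and 7706 in the Flag-IPs against 8535, 7880 and 8647 in the HA-IPs. The groups overlapped, with a log2 fold change of 0.10 and a 95% interval from -0.01 to 0.21. NDUFA7 had the lowest normalized counts of complex I, at 41.6 ± 10.5 and 47.1 ± 5.29 normalized counts (SD, n = 3 each), and its log2 fold change of 0.20 had an interval from -0.35 to 0.75. Of the 7 core subunits 2 were called and the median was -0.16, and of the 30 accessory subunits 5 were called and the median was -0.23. NDUFV2, a core subunit that was not called (-0.48 ± 0.16, adjusted p-value 0.0712), has a processed pseudogene in the table, NDUFV2P1. The pseudogene read 101.2 ± 26.2 against 40.0 ± 5.28 and was called higher in the Flag-IPs, and reads shared between the pair could have been counted for either.

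None of the 4 subunits of complex II was called, and their median log2 fold change was -0.02. SDHA, the flavoprotein that oxidizes succinate, read 17900, 18490 and 19840 in the Flag-IPs against 20200, 20210 and 20190 in the HA-IPs. Every HA-IP stood above every Flag-IP, but the log2 fold change of 0.11 ± 0.05 gave an adjusted p-value of 0.181 (limma), with a 95% interval from 0.00 to 0.22. SDHB, the iron-sulfur subunit, went the other way at 1492 ± 112 against 1286 ± 97.3 (log2 fold change -0.21 ± 0.07, adjusted p-value 0.0819). SDHD, a membrane anchor, lay at 606.4 ± 91.1 and 610.8 ± 23.8. The 3 SDHA pseudogenes in the table, SDHAP1, SDHAP3 and SDHAP4, had log2 fold changes of 0.03, -0.03 and -0.14 and none was called.

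Complex III held the only subunit called higher in the HA-IPs. UQCRFS1, the Rieske iron-sulfur protein (chr19:29205320-29213151, minus strand), read 3075, 3378 and 4363 in the Flag-IPs against 4932, 4648 and 4733 in the HA-IPs. Flag-IP replicate 3 stood closer to the HA-IPs than to the other Flag-IPs, but the groups did not overlap. The mean was 1.32-fold higher in the HA-IPs (log2 fold change 0.42 ± 0.10, adjusted p-value 0.0201), and the call was lost without Flag-IP replicate 2 or without any 1 of the HA-IPs. Its processed pseudogene UQCRFS1P1 read 207.9 ± 29.4 and 174.6 ± 11.6 and was not called. The core proteins UQCRC1 (6029 ± 188 against 5940 ± 228) and UQCRC2 (4662 ± 177 against 5061 ± 146) gave log2 fold changes of -0.02 and 0.12. The small subunits lay lower, with UQCR10 at -0.49 ± 0.18 (adjusted p-value 0.0965) and the hinge protein UQCRH at -0.46 ± 0.16 (adjusted p-value 0.079). UQCRHL, a near copy of UQCRH without introns, read 13.4 to 32.0 normalized counts per library against 722.6 to 1597 for UQCRH, and reads could be split between the pair.

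In complex IV, cytochrome c oxidase, all 11 subunits were fitted below 0 (10 with trends of GC content and length removed, where COX7A2 turned to 0.03, and 10 without Flag-IP replicate 1). Their median log2 fold change was -0.28, and 2 were called higher in the Flag-IPs. COX4I1, which binds ATP and regulates the enzyme, read 3739, 3345 and 3154 in the Flag-IPs against 2814, 2785 and 2928 in the HA-IPs (log2 fold change -0.26 ± 0.06, adjusted p-value 0.0217). COX5A read 1812, 1680 and 1853 against 1416, 1486 and 1603 (-0.25 ± 0.06, adjusted p-value 0.0292). The groups overlapped in neither gene. The COX5A processed pseudogene COX5AP2 read 34.8 ± 19.8 in the Flag-IPs and 5.08 ± 6.13 in the HA-IPs, with 0.99 normalized counts in HA-IP replicate 2. The 9 others did not pass the test, among them COX6C at -0.45 ± 0.23, COX6A1 at -0.36 ± 0.12 (adjusted p-value 0.0651), COX8A at -0.36 ± 0.14, COX6B1 at -0.28 ± 0.12, COX7A2 at -0.23 ± 0.23 and COX7A2L, known for its part in supercomplexes, at -0.22 ± 0.09. The isoforms COX4I2, COX6A2, COX6B2, COX7A1 and COX8C, known from muscle, lung or testis, were not analysed here, since no row bore their symbol or identifier.

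In complex V, all 4 calls lay in the membrane part and stalk, and the difference between these and the catalytic head was not tested. None of the 5 F1 subunits was called, and their median log2 fold change was 0.02. ATP5F1B, the catalytic beta subunit, had the highest normalized counts of the 79 genes, at 44240, 41680 and 41860 in the Flag-IPs against 44960, 43080 and 44410 in the HA-IPs. The groups overlapped, and the 95% interval of the log2 fold change ran from -0.06 to 0.16. Per 1000 bases of the canonical transcript its level was 24200 in the Flag-IPs and 25100 in the HA-IPs, and SDHA came next at 6960 and 7500. ATP5F1D, the delta subunit, lay at 658.7 ± 65.8 and 744.8 ± 87.8 (log2 fold change 0.17 ± 0.10). ATP5F1E, the small epsilon subunit, read 616.9, 256.3 and 278.6 in the Flag-IPs against 157.4, 227.8 and 269.1 in the HA-IPs. Flag-IP replicate 1 was more than double any other library, the groups overlapped, and the log2 fold change of -0.73 ± 0.29 was not called (adjusted p-value 0.127).

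Of the 12 subunits of the peripheral stalk and membrane part, 4 were called higher in the Flag-IPs, with a median of -0.32. With trends of GC content and length removed, 2 of the 12 were called higher in the Flag-IPs and 1 in the HA-IPs. Over all genes these shares were 7.4% and 7.97%. The median of the 12 was then -0.08, beside 0.003 for the 5 F1 subunits and -0.009 for all 18 of complex V. ATP5MC3, which encodes the c subunit of the rotating ring (chr2:175176258-175181710, minus strand), had the largest fold change of all 79, at 5489, 3929 and 3143 in the Flag-IPs against 1824, 1959 and 2318 in the HA-IPs. The groups did not overlap, the mean was 2.06-fold higher in the Flag-IPs, and the log2 fold change was -1.01 ± 0.16 (adjusted p-value 0.00273). All 3 ATP5MC genes encode the same mature c subunit behind different import sequences. ATP5MC1 read 1374, 1034 and 940.8 against 635.8, 819.1 and 854.6 (log2 fold change -0.53 ± 0.14, adjusted p-value 0.0293), and ATP5MC2 read 2182, 1979 and 2105 against 1374, 1700 and 2095 (-0.30 ± 0.12, adjusted p-value 0.125). HA-IP replicate 3 of ATP5MC2 lay among its Flag-IPs, while the groups of ATP5MC1 stayed apart. The processed pseudogene ATP5MC1P6 read 30.5 ± 7.31 in the Flag-IPs and 4.51 ± 6.63 in the HA-IPs and was called higher in the Flag-IPs.

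ATP5MG and ATP5ME, the g and e subunits that sit where synthases pair in the cristae, were called as well. ATP5MG read 1608, 1166 and 1057 against 602.6, 689.3 and 994.6 (log2 fold change -0.75 ± 0.18, adjusted p-value 0.0185). ATP5ME read 449.3, 392.4 and 357 against 136.9, 222.8 and 351.8 (-0.85 ± 0.25, adjusted p-value 0.0499). The call of ATP5ME sat at the threshold and held in 4 of the 13 alternatives other than those that left out 1 library, with adjusted p-values of 0.0627 in edgeR and 0.215 in DESeq2, and ATP5MG gave 0.0722 in DESeq2. In both genes HA-IP replicate 3 lay just below the lowest Flag-IP. ATP5IF1, the inhibitor that stops the synthase from splitting ATP, lay at 1104 ± 97.9 and 959.2 ± 145 and was not called (-0.21 ± 0.11, adjusted p-value 0.228).

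**Figure D4:**
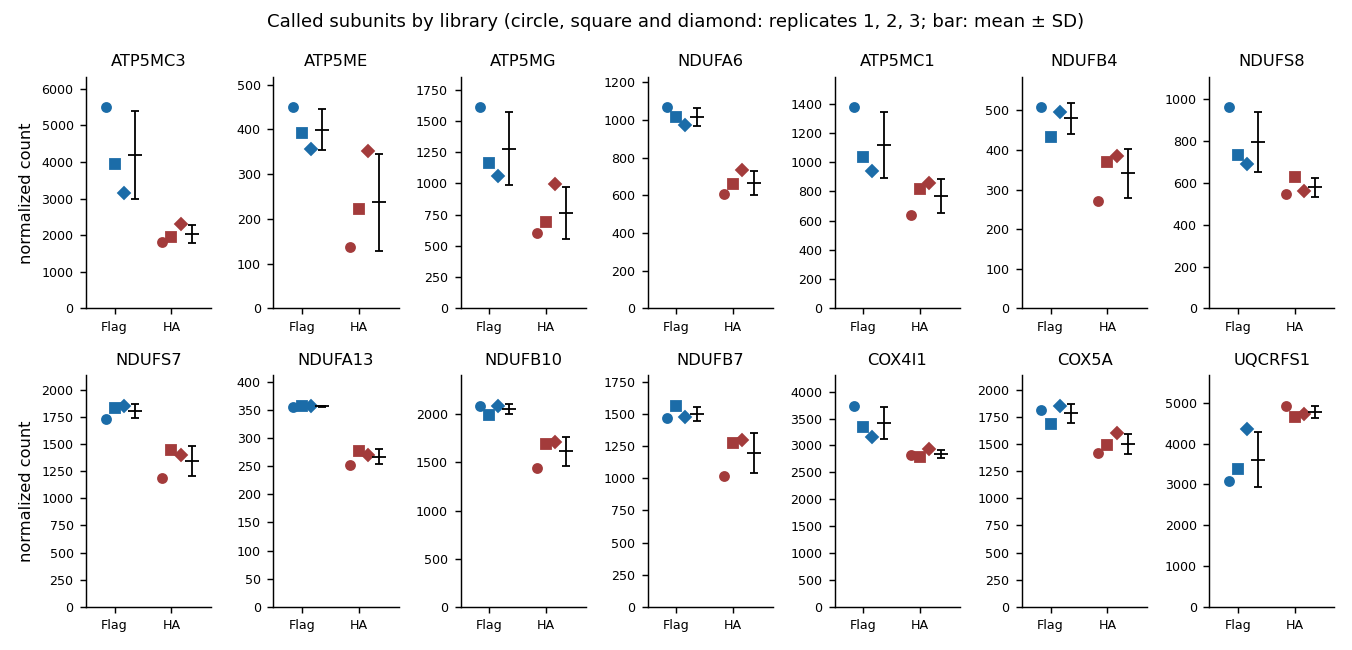
Normalized counts (y axis, from 0) of the 14 called subunits in each library, Flag-IPs in blue and HA-IPs in red, with mean ± SD (n = 3) beside the points. Groups do not overlap in any panel, and ATP5ME has the narrowest gap, from 351.8 to 357.

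The subunits did not separate the libraries cleanly. Flag-IP replicate 1 was the highest library for 59 of the 79 subunits and HA-IP replicate 1 the lowest for 55. After each gene was centred on its mean over 6 libraries, the median log2 value of the subunits was 0.29 in Flag-IP replicate 1, 0.01 in replicate 2 and 0.02 in replicate 3. In the HA-IPs it was -0.30, -0.10 and 0.03, so that HA-IP replicate 3 lay at the level of 2 of the Flag-IPs. Together the 79 transcripts took 0.598% to 0.665% of all normalized counts in the Flag-IPs and 0.574% to 0.597% in the HA-IPs.

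The 13 subunits encoded by mitochondrial DNA, which cytosolic ribosomes do not translate, were all called higher in the Flag-IPs. Their median log2 fold change was -0.82, from -0.99 (ND4L) to -0.72 (ND1), beside -0.24 for the nuclear-encoded subunits, and the median moved to -0.51 without Flag-IP replicate 1. Their summed share of all normalized counts was 0.903% in Flag-IP replicate 1, 0.501% in replicate 2 and 0.451% in replicate 3. The HA-IPs gave 0.281%, 0.324% and 0.367%. COX1, with the highest normalized counts, had means of 54690 and 29040. In other fits, 11 of the 13 passed with trends of GC content and length removed 1 with DESeq2, 3 with a replicate block and 0 without limma's variance trend, and 7, 0 and 1 passed without Flag-IP replicate 2, HA-IP replicate 1 and HA-IP replicate 2.

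Markers of heart muscle moved with the groups too. They were listed because earlier results of these data showed heart genes in the Flag-IPs, so the direction of their calls is no new result. Of 24 such markers 20 were tested (MYL7, PLN, NPPA and NPPB were not analysed here), and all 20 were called higher in the Flag-IPs, with a median log2 fold change of -4.14. Between 15 and 20 of them were called with any 1 library left out, 17 with DESeq2 and 2 without limma's variance trend. Their sum was 0.554%, 0.39% and 0.249% of normalized counts for the 3 Flag-IPs, against 0.0125%, 0.00913% and 0.0533% for the HA-IPs, with 1 of the 20 at 0 in each of HA-IP replicates 1 and 2 and none at 0 elsewhere. Heart muscle is rich in the subunits described here. Like the summed markers, 51 of the 79 subunits, and 8 of the 13 called higher in the Flag-IPs, were highest in replicate 1 among the Flag-IPs and in replicate 3 among the HA-IPs. The share of all genes in this order was not counted. Over 13141 genes, Flag-IP replicate 1 and HA-IP replicate 3 deviated together from their group means (correlation 0.30). With both libraries left out, 19 subunits (1170 of all genes) were called higher in the Flag-IPs, and the median of the 79 was -0.21. The part of the heart muscle markers in the fold changes of the subunits was not tested. Markers of the line were present in both groups, as in KRT8 (10160 and 11100) and VIM (24990 and 24530), and of 7 such markers 1 was called higher in the Flag-IPs and 2 in the HA-IPs.

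**Figure D5:**
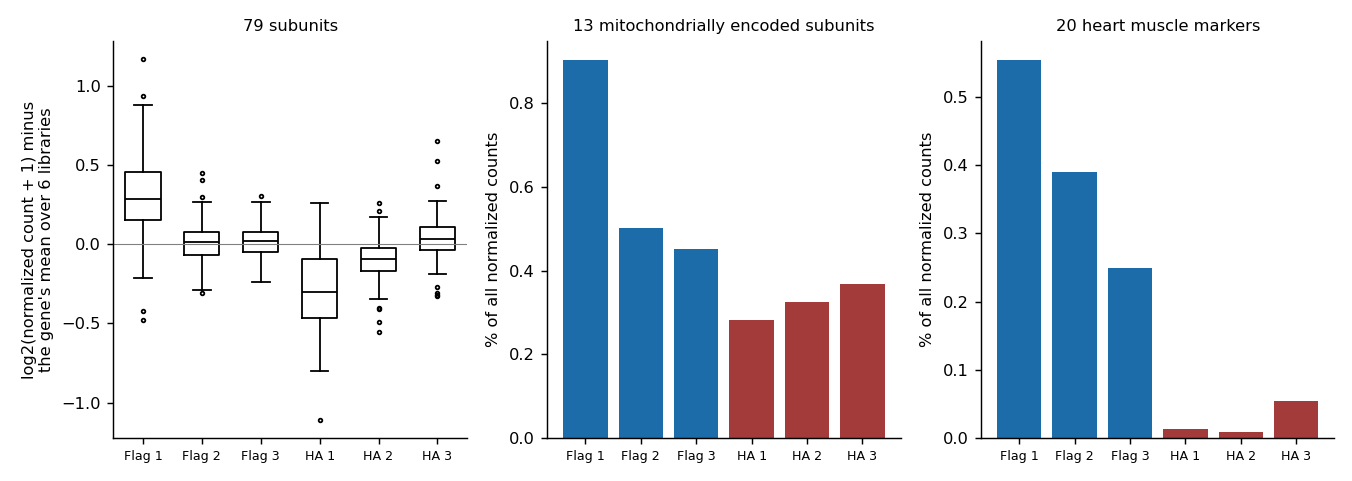
For each library (x axis): left, the 79 subunits as box plots of log2(normalized count + 1) minus the gene's mean (line, median, box, quartiles, whiskers to 1.5 interquartile ranges); middle and right, the share of all normalized counts (%) of the mitochondrially encoded subunits and of the heart muscle markers. Flag-IP replicate 1 is highest in all panels, at 0.903% in the middle and 0.554% on the right, and HA-IP replicate 3 lies level with Flag-IP replicates 2 and 3 on the left.

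Calls among other genes of the pathway were few and went in both directions. Of 54 assembly factors 53 were in the table, with 2 called higher in the Flag-IPs, 2 in the HA-IPs and a median log2 fold change of -0.09. Each count is 3.77%, below the 7.1% of all genes called higher in the Flag-IPs and the 5.79% in the HA-IPs. NDUFAF8, which helps to build complex I, was higher in the HA-IPs (283.3 against 584 normalized counts, log2 fold change 1.06 ± 0.21, adjusted p-value 0.00848), and so was SDHAF1, which delivers iron-sulfur clusters to SDHB (558.6 against 864.2, 0.65 ± 0.13, adjusted p-value 0.00902). The complex IV factors COA3 (-0.41 ± 0.10) and COA1 (-0.28 ± 0.08) were higher in the Flag-IPs. With 1 library left out, NDUFAF8 was called in 5 of 6 fits (not without Flag-IP replicate 2), COA3 in 4 (not without HA-IP replicate 1 or 2), SDHAF1 in 3 (not without Flag-IP replicate 2 or HA-IP replicates 1 or 2) and COA1 in 1 (only without Flag-IP replicate 3), and with trends of GC content and length removed COA3 and COA1 lost their calls. Among 10 carriers and subunits outside the symbol pattern, CYC1, the cytochrome c1 of complex III (0.24 ± 0.07, adjusted p-value 0.041), and GPD2, the mitochondrial glycerol phosphate dehydrogenase (0.22 ± 0.05), were higher in the HA-IPs, and ETFA (-0.23 ± 0.07) in the Flag-IPs. Cytochrome c itself (CYCS) was not called, at -0.27 ± 0.13. With 1 library left out, GPD2 was called in 3 of 6 fits, CYC1 in 2 and ETFA in 1, and all 3 were lost without Flag-IP replicate 2 and without HA-IP replicate 1.

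Of 12 regulators of these genes 2 were called higher in the Flag-IPs and 1 in the HA-IPs, beside 7.1% and 5.79% of all genes. PPARGC1A, the coactivator PGC-1alpha, read 417.2 in the Flag-IPs against 131 in the HA-IPs (log2 fold change -1.58 ± 0.29, adjusted p-value 0.00581), and its partner ESRRA read 1487 and 958.1 (-0.63 ± 0.10, adjusted p-value 0.0026). YY1 was higher in the HA-IPs (0.21 ± 0.05). NRF1 (-0.06), GABPA (0.03) and TFAM (0.05) were not called. PPARGC1A and ESRRA were called with any 1 library left out, and YY1 lost its call without Flag-IP replicate 2 or any 1 of the HA-IPs. None of the 3 was called without limma's variance trend. Of 78 mitochondrial ribosomal proteins, 9 (11.5%) were called higher in the Flag-IPs and none in the HA-IPs, with a median of -0.12, and the number called higher in the Flag-IPs ran from 1 (without Flag-IP replicate 2) to 13 (without Flag-IP replicate 3). With trends of GC content and length removed, 5 were called higher in the Flag-IPs and 3 in the HA-IPs, with a median of -0.0011.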

How the data were processed

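RNA of 3 Flag-IPs and 3 HA-IPs was sequenced after poly(A) selection. Per the submitters' notes and methods, the authors trimmed reads (Trimmomatic 0.36), mapped them to GRCh38 (STAR 2.5.2b), counted them per gene (featureCounts of Subread 1.5.2) and left out genes with few reads. The deposited values are a normalized signal per gene, that is read counts scaled by the authors with 1 size factor for each library. The deposited log2 fold changes and adjusted p-values of the authors' own DESeq2 comparison were not used.

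Dividing each value by the worth of 1 read gave whole reads for 100% of values (within 0.01 read), 23174532 to 44134833 per library, so that for all but the lowest genes precision was set by replicate spread. All 16834 genes entered limma 3.58.1 (R 4.3.3) on log2(normalized count + 1), with a variance trend and Benjamini-Hochberg adjustment. DESeq2 1.42.0 and edgeR 4.0.16 on recovered reads were alternatives, as were pseudocounts of 0.1 and 10, a mean of at least 50, quantile, total and upper-quartile scaling, no variance trend, a replicate block, each library left out, an adjusted p of at most 0.01, and GC content and length trends removed per library (robust regression on splines of 5 degrees of freedom, MASS 7.3.60.0.1). The fits were also run on simulated counts in which no library stood apart. That run does not bear on how the calls here depend on single libraries. Lengths came from canonical transcripts of GENCODE release 44, which held 16683 of 16834 identifiers (99.1%) and need not be the transcripts expressed. The counts cover all 79 subunits, and 1 of them is not reported here by itself. Mitochondrially encoded genes were matched by Ensembl identifier.

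The symbol pattern, the gene lists and the marker lists were chosen with earlier results of these data known. The splits into core, accessory, F1 and membrane subunits and the bands of length were chosen later. Named are the called subunits, the highest and lowest level and the largest fold change each way in each complex, UQCRH with UQCRHL, the ATP5MC genes, the common isoforms and ATP5IF1. NDUFV2, UQCRC2, ATP5PB, the pseudogenes and genes outside the pattern were named after their values had been seen.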

Additional observations from a re-analysis of the deposited data

How the results depend on the processing

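The median log2 fold change of the 79 subunits stayed below 0 under every alternative and was -0.0533 with GC content and length trends removed, with or without the replicate block, while those trends left 4 subunits called higher in the Flag-IPs and 3 in the HA-IPs (2 with the replicate block). With the limit on the adjusted p at 0.01 the counts were 4 and 0. The share of all genes at that limit was not counted, so these 2 counts have no background beside them. For limma without the variance trend the counts were 1 and 0 (182 and 6 over all genes). Leaving out 1 library gave 4 to 21 and 0 to 2, as calls over all genes ran from 517 to 1509 and from 103 to 1550. No called subunit changed sign, while 21 of the 79 did with GC content and length trends removed and at most 9 under any other alternative. Among the genes described singly these were ATP5F1B (-0.0106 with quantile normalization, -0.0008 with the same total per library), SDHD (-0.0321 with the same total, -0.0944 to 0.1243 with 1 library left out), ATP5IF1 (0.0306), COX7A2 (0.0332) and UQCRC1 (0.0792) with GC content and length trends removed, with and without the replicate block, COX7A2 (-0.392 to 0.073), UQCRC1 (-0.05 to 0.0052) and UQCRHL (-0.2478 to 0.3496) with 1 library left out, and UQCRHL (-0.1645) and NDUFA7 (-0.072) with Flag-IP replicate 1 and HA-IP replicate 3 both left out, an alternative chosen after seeing the data. ATP5F1A, named above as near 0, changed sign as well. It gave -0.0367 with quantile normalization, -0.0042 with GC content and length trends removed, and -0.0057 at lowest with 1 library left out. The causes of these changes of sign were not tested. Same-numbered libraries did not deviate together (correlations of -0.16, 0.03 and -0.31). Deviations from a mean of only 3 libraries constrain each other, so these values cannot decide whether equal numbers mark paired samples. The labels do not state it either. A replicate block gave 9 and 1 calls (910 and 752 over all genes). Ratios of muscle to common isoforms could not be computed. UQCRHL and NDUFA7, at about 20 and 44 normalized counts, had the fewest counts of the 79, and depth limits their precision most.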
